A study of Xenopus laevis with 11 samples.

Results

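Accessible chromatin was examined around 4 Krüppel-like factor genes of Xenopus laevis, klf2, klf4, klf5 and klf17, each present as an L and an S copy. Members were chosen by gene name in the RefSeq table of the v10.1 assembly, and all 8 copies were found among its 34461 protein-coding genes on the 18 chromosomes. Of these, 7 matched by symbol and klf17.S matched as a synonym of klf17.1.S. Around them lay 58 of the 58223 peaks, taken as every peak whose summit was within 50 kb of either end of the gene or inside it. No peak was counted for more than 1 copy.

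The peaks come from ATAC-seq, in which the Tn5 transposase inserts adapters into DNA that is free of nucleosomes. The tissue was the animal cap, the ectoderm dissected from wild-type blastulae of the strain Xla.NXR-WTNXR, with a pair of caps in each reaction. The labels list 6 libraries of stage 9 (4 replicates) and 5 of stage 8 (3 replicates). The single peak list used here joins all stage 9 libraries, and the stage 8 libraries were not analysed here. The list therefore gives 1 value for each peak, with no error between replicates, and none of the differences below could be tested over samples. In a pool of cells, a region open in few cells and one weakly open in all cannot be told apart.

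Krüppel-like factors are transcription factors that bind GC-rich and CACCC sequences through zinc fingers at their C terminus. In mouse embryonic stem cells Klf2, Klf4 and Klf5 help to maintain self-renewal, and KLF4 is among the factors that reprogram differentiated mammalian cells to pluripotency. KLF17 is known from the human early embryo and naive pluripotent cells, and the frog gene is also known as neptune. X. laevis is an allotetraploid, so each of these genes is carried by both the L subgenome and the S subgenome, and the corresponding copies are called homeologs.

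Each peak has a fold enrichment and a −log10 q, which measures confidence after correction over the genome. The fold enrichment divides the fragments covering the summit by the number a control library predicts there, with 1 added to each. Because of the added 1, it is lower than the plain ratio, most so where the predicted number is small. The number of fragments at the summit was recovered from the fold enrichment and the p-value. Over the whole list the median peak was 155 bp wide, 5.51-fold enriched and covered by 9 fragments, and no summit for which a number could be recovered had fewer than 5 fragments. A place without a peak is thus one where opening was not detectable at this depth. As a check of the tissue, end peaks, with the summit within 1 kb of a gene end, were found at 17 of 21 copies of ectoderm genes, all but the L and S copies of the keratin genes krt18.1 and krt12.4, against 47.8% of all protein-coding genes. Among globin, muscle and liver genes they were found at 2 of 11 copies, tnnt3.S and ambp.L. Lists of genes not particular to ectoderm reached similar shares, 83.3% for SP genes and 88.9% for other klf genes, so end peaks are a weak check of the tissue.

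All 8 klf copies had an accessible region at a gene end, and in each copy the end peak was the peak of highest fold enrichment within 50 kb. An end peak was found at 47.8% of all protein-coding genes, and the strongest peak within 50 kb was an end peak at 27.7% of the genes that had any. Genes were not matched for the distance to their neighbours, whose own end peaks can fall within the window. At the klf copies this distance ran from 6906 bp at klf17.S to 388194 bp at klf4.S, and its part was not tested. The strongest peaks of the klf copies had their summits 1 to 146 bp from the annotated end. They were 7.76-fold to 16.4-fold enriched (median 13.6), against a median of 7.86-fold for the strongest end peak of the 16478 genes with one. Their summits held 15 to 28 fragments, with a median of 23.5 against 14 over those genes. By fragments alone the end peak was the highest in 5 of 8 copies, because klf4.S and both klf17 copies had another peak with as many or more. The end with the strongest peak is called the leading end from here on. The gene table gives no strand, and the start site coordinates that the paper supplies were not used here. Whether transcription starts at the leading end was therefore not determined.

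The number of peaks ranged from 4 to 12 a copy, with a median of 7.5 against 3 over all protein-coding genes, whose quartiles were 1 and 6. At least 1 peak within 50 kb was found at 85% of all genes. klf17.S had 12 peaks and klf17.L 10, and 9.04% and 13.2% of all genes had as many. klf2.S and klf5.S had 9 each, a number that 16.1% of genes reached. klf2.L had 6, while klf4.L, klf4.S and klf5.L had 4 each, which 47.5% of genes reached. The klf17 copies thus lay in the upper part of the range, and klf4 near the middle.

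**Figure D1:**
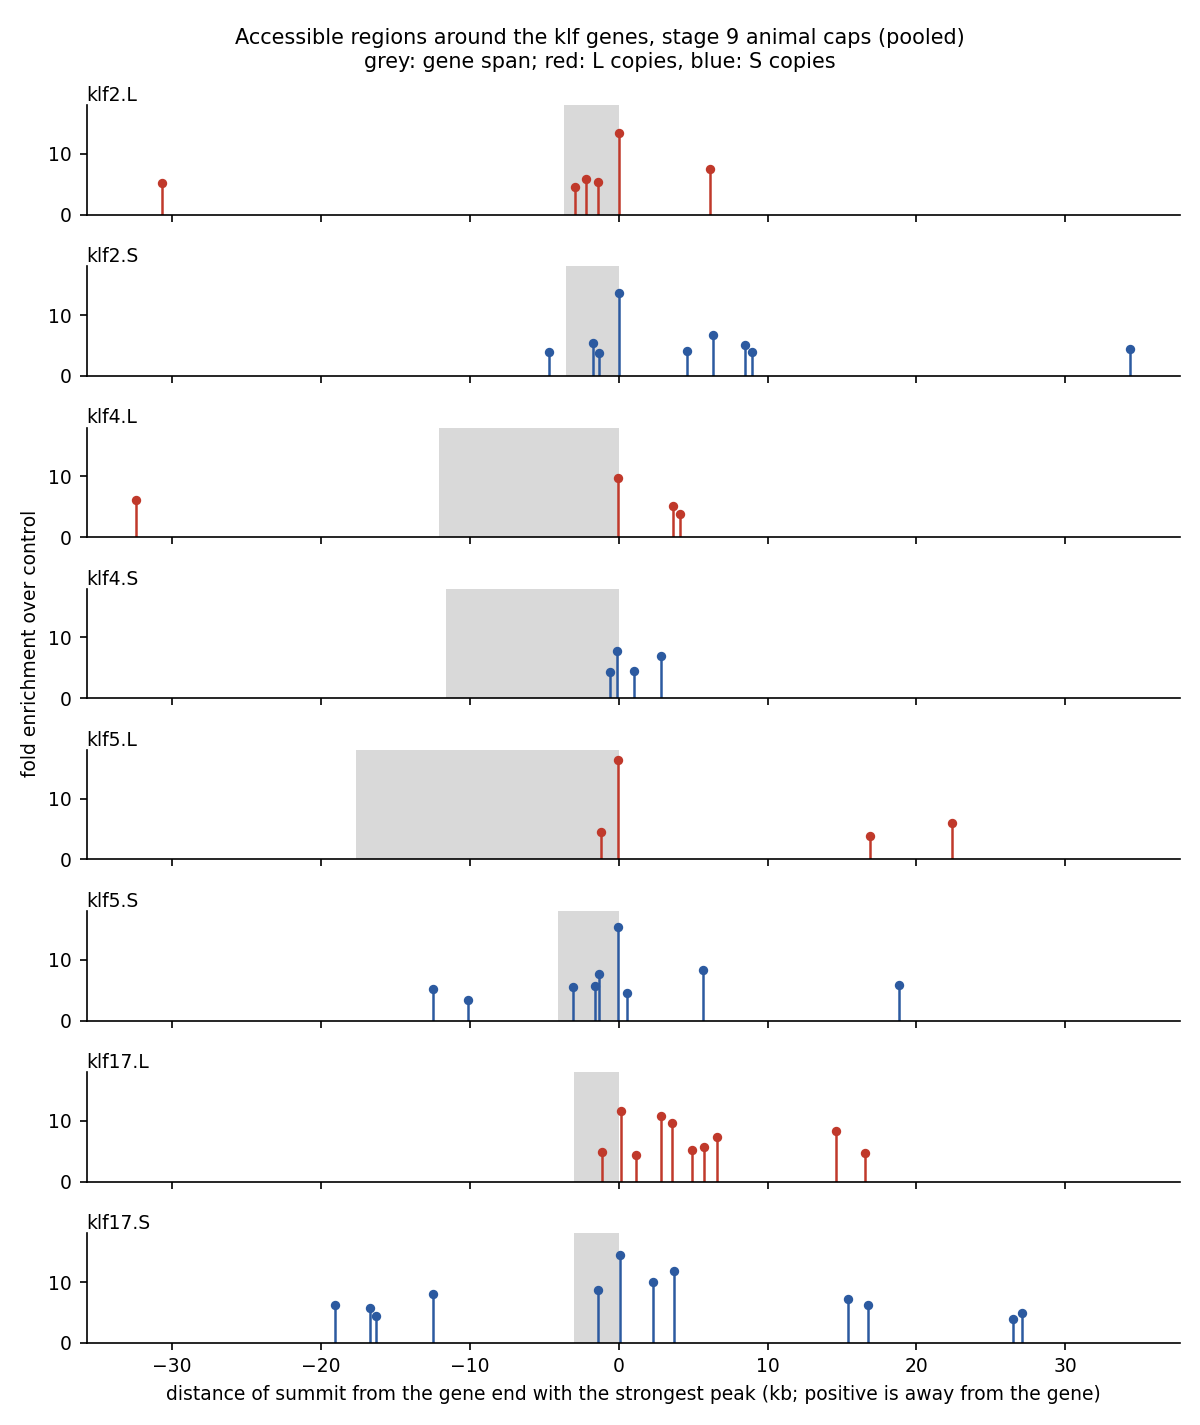
Fold enrichment (y axis) of each of the 58 peaks by the distance of its summit from the leading end (x axis, kb, positive values point away from the gene). Each panel is 1 copy, grey marks the span of the gene, and in every panel the tallest line stands at or within 146 bp of the leading end.

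Of the 58 peaks, 16 had the summit inside the klf gene, 43 were inside it or within 10 kb, and 15 lay farther out, which was not compared with other genes. The farthest lay 34358 bp from klf2.S, and the first summit beyond the window was 55069 bp from the same gene, so no copy had a summit near the limit of 50 kb. The klf gene was the nearest protein-coding gene for 51 peaks. Of the other 7, 4 lay inside LOC108715571 beside klf17.S, and 1 each was nearest to eps15l1.L, gdf3.S and pibf1.S. The count of 51 depends on how far the neighbours lie and was not compared with other genes.

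Flanking peaks were found mostly on the side of the leading end. Leaving out the strongest peak itself, which defines that end, 29 of 38 peaks outside the klf genes lay beyond the leading end (76.3%). Around all genes with an end peak, 51.8% of flanking peaks lay on that side. The unevenness came largely from klf17.L, with 8 of 8, and from klf2.S, with 5 of 6. The neighbours are also unevenly placed at some copies: the nearest gene beyond the leading end of klf17.L lies 213437 bp away, and the one on the other side lies 62517 bp away. For klf2.S these gaps are 61823 and 11072 bp. For klf17.S, with 6 of 10 flanking peaks beyond the leading end, they are 187389 and 6906 bp. A relation between gene spacing and the side of the peaks was not tested. Flanking peaks of 1 gene are not independent, and the share was not tested.

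**Figure D2:**
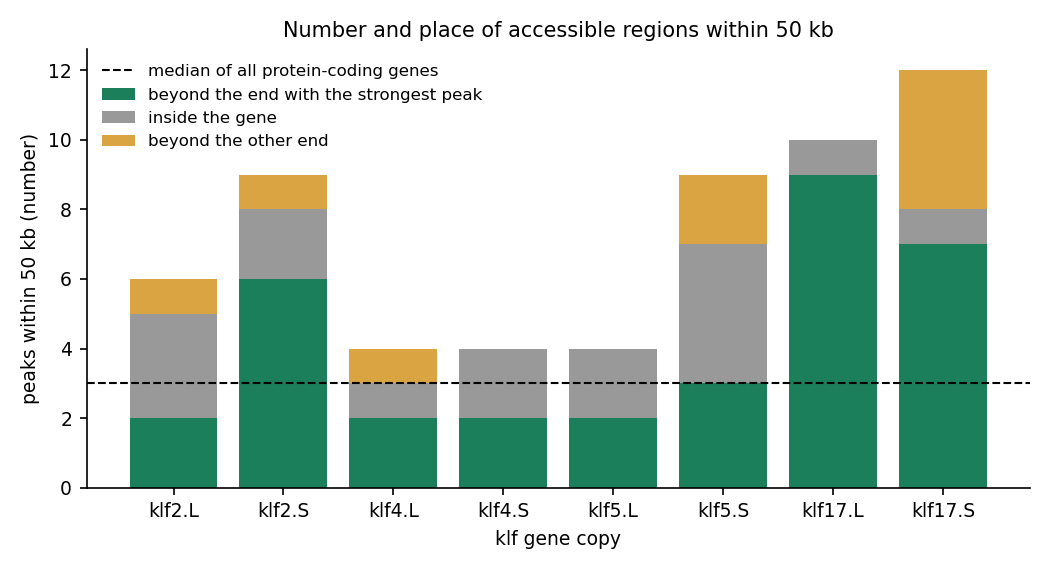
Number of peaks within 50 kb of each klf copy (y axis), split by whether the summit lay beyond the leading end, inside the gene or beyond the other end, with the strongest peak included. The dashed line is the median of 3 over all protein-coding genes, and all 8 copies stand above it.

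klf2, whose mammalian counterpart acts in blood vessel lining and quiescent T cells, showed nearly equal end peaks at both copies. At klf2.L (1L:124670240 to 124673917) the peak at 1L:124670002 to 124670313 was 13.5-fold enriched with 24 fragments (95% Poisson interval 15.4 to 35.7). At klf2.S (1S:104915883 to 104919427) the peak at 1S:104915656 to 104915943 was 13.6-fold enriched with 25 fragments (16.2 to 36.9). Both summits lay just outside the low-coordinate end, by 1 bp at L and 28 bp at S. Only 13.3% and 12.2% of genes with an end peak had one as strong.

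The next strongest peak of klf2 also lay at a like distance in the copies. At klf2.L it was 6143 bp beyond the leading end, 7.46-fold enriched with 14 fragments (7.65 to 23.5). At klf2.S it was 6370 bp beyond that end, 6.71-fold enriched with 11 fragments (5.49 to 19.7). The copies differed in the weaker peaks. klf2.S had 4 further outward peaks, at 4566, 8516, 8990 and 34358 bp, with 6 to 9 fragments, and klf2.L had none. Inside the gene klf2.L had 3 peaks, 1410, 2167 and 2935 bp from the leading end, and klf2.S had 2, at 1311 and 1704 bp, all with 6 to 11 fragments. The innermost of klf2.L, with 7 fragments, was also an end peak, 742 bp from the other end. The remaining peaks lay beyond the other end, 27015 bp from klf2.L within the neighbour eps15l1.L, and 1111 bp from klf2.S. These last had 8 and 6 fragments.

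klf4, the gene of the reprogramming factor, had the fewest peaks and the weakest end peaks of the 4 pairs. At klf4.L (1L:130611901 to 130623993) the end peak at 1L:130623842 to 130624099 was 9.70-fold enriched with 19 fragments (11.4 to 29.7). At klf4.S (1S:110278642 to 110290212) the end peak at 1S:110290042 to 110290231 was 7.76-fold enriched with 15 fragments (8.40 to 24.7). Its −log10 q of 9.94 fell just under 10, so 7 of the 8 klf copies had an end peak above that limit, as had 22.9% of all genes. Both summits were inside the gene at its high-coordinate end, 21 bp from it at L and 102 bp at S. As strong an end peak was found at 33.7% and 51.4% of the genes with one.

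A second klf4 region lay a few kb beyond the leading end of both copies. At klf4.L it was 3638 bp out and 5.12-fold enriched with 15 fragments (8.40 to 24.7). At klf4.S it was 2872 bp out and 6.94-fold enriched with 17 fragments (9.90 to 27.2), which is more fragments than at the end peak of that copy. The background at the 2 summits, 2.12 and 1.59 fragments, was above the 1.06 at both end peaks. klf4.L also had a peak with 6 fragments at 4090 bp and a 6.15-fold peak with 9 fragments 20315 bp beyond its other end, the second in its ranking by fold. klf4.S had weak peaks 1060 bp outside and 614 bp inside the leading end, with 7 and 10 fragments, the inner one also being an end peak. No gene lies near on either side: the closest are rad23b, 103242 bp from klf4.L and 89010 bp from klf4.S.

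klf5, which in mammals acts in proliferating epithelia and in the blastocyst, had the strongest and widest end peaks. At klf5.L (2L:132778396 to 132796065) the peak at 2L:132795230 to 132796331 was 16.4-fold enriched with 28 fragments (18.6 to 40.5). At klf5.S (2S:118123778 to 118127886) the peak at 2S:118127480 to 118128131 was 15.4-fold enriched with 26 fragments (16.98 to 38.1). The summits were inside the gene, 31 and 26 bp from the high-coordinate end. These regions spanned 1102 bp and 652 bp, where the median for the strongest end peak of a gene was 248 bp, and 0.668% and 6.08% of genes with an end peak had one as wide. With the peak inside klf17.S described below, they were the only klf peaks of 500 bp or more, a width that 5.39% of all listed peaks reached.

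No outward peak of klf5 from 1 to 50 kb out lay within 1 kb of the same distance in the other copy. klf5.S had a peak 5671 bp beyond the leading end that was 8.25-fold enriched with 16 fragments (9.15 to 26.0), while the closest outward peak of klf5.L was at 16873 bp, with 9 fragments. Each copy had 1 more distant peak with 11 fragments, at 22389 bp for klf5.L and at 18802 bp for klf5.S, the latter nearer to pibf1.S. Inside the gene, klf5.S had a peak 1324 bp from the leading end that was 7.67-fold enriched with 14 fragments (7.65 to 23.5). klf5.L had one at 1219 bp with 7 fragments (2.81 to 14.4). klf5.S had 5 other weak peaks, with 6 to 9 fragments: 2 inside the gene, at 1598 and 3056 bp from the leading end, 1 end peak 531 bp outside the leading end, and 2 beyond its other end. The annotated klf5.L spans 17670 bp and klf5.S 4109 bp, so those beyond the other end of klf5.S, 10092 and 12480 bp from the leading end, lie at distances that fall inside the gene in klf5.L.

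klf17, the gene also listed as neptune, was surrounded by the largest number of peaks and by several strong ones. The end peak of klf17.L (4L:86668113 to 86671127) at 4L:86671035 to 86671360 was 11.5-fold enriched with 20 fragments (12.2 to 30.9). The end peak of klf17.S (4S:71870324 to 71873328) at 4S:71873183 to 71873578 was 14.4-fold enriched with 23 fragments (14.6 to 34.5). Both summits lay just outside the high-coordinate end, by 146 bp and 61 bp. Peaks reaching a −log10 q of 10 numbered 4 at klf17.L and 5 at klf17.S, which 6.64% and 3.69% of all genes reached. Those of klf17.S include a peak inside the neighbour LOC108715571 (−log10 q 11.45), described below. At the other copies there were 0 to 2 peaks with a −log10 q of 10 or more, so klf17 held 9 of the 15 klf peaks above that limit. Of all klf peaks 25.9% reached it, against 20.4% of the whole list.

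Several outward klf17 peaks, strong and weak, lay at like distances in both copies. In klf17.L a peak 2833 bp beyond the leading end was 10.7-fold enriched with 20 fragments (12.2 to 30.9), and in klf17.S one at 2288 bp was 10.0-fold enriched with 25 fragments (16.2 to 36.9). The next was at 3559 bp in klf17.L, 9.70-fold with 19 fragments (11.4 to 29.7), and at 3688 bp in klf17.S, 11.8-fold with 20 fragments (12.2 to 30.9). A pair followed at 14616 and 16569 bp in klf17.L, with 15 and 8 fragments, and at 15403 and 16725 bp in klf17.S, with 13 and 12 fragments. The fragment intervals overlapped for each of these matched peaks.

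Other klf17 peaks outside the gene, some higher in fold than the weakest matched ones, were found at 1 copy. klf17.L had 3 peaks between 4952 and 6575 bp beyond the leading end, the strongest of them 7.28-fold with 14 fragments (7.65 to 23.5), and klf17.S had none there. A weak peak of klf17.L at 1164 bp, with 8 fragments, had no partner within 1 kb either. klf17.S had 2 peaks at 26521 and 27127 bp, with 9 fragments each, and klf17.L had none beyond 16569 bp. Inside the gene both copies had a peak. That of klf17.S spanned 680 bp and was 8.71-fold enriched with 14 fragments (7.65 to 23.5), 1362 bp from the leading end. The peak of klf17.L at 1114 bp had 9 fragments (4.12 to 17.1). On the other side klf17.S had 4 peaks within LOC108715571, an unnamed gene 6906 bp away, and the lncRNA gene LOC121393308, which overlaps it. The strongest of these was 7.96-fold enriched with 18 fragments (10.7 to 28.4). klf17.L had none on that side.

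**Figure D3:**
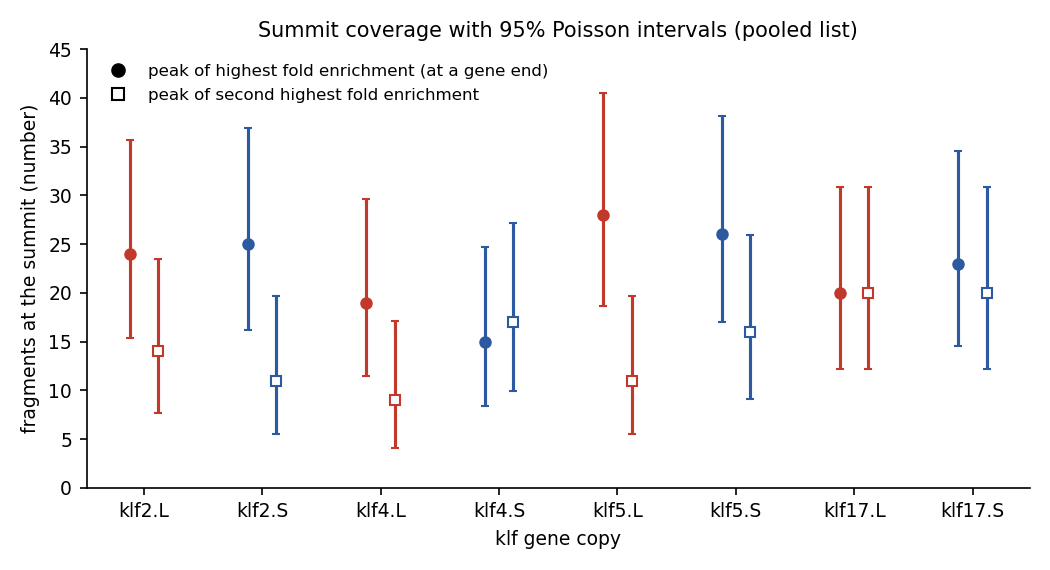
Fragments at the summit (y axis) of the peaks of highest (filled circles) and second highest (open squares) fold enrichment of each klf copy, with 95% Poisson intervals that cover counting error only. L copies are red and S copies blue, and the intervals of the filled circles overlap between the copies of every pair.

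The study asks how the L and S subgenomes differ in their regulatory regions, and for the klf genes this was a comparison of the copies of each pair. The paper's predicted enhancers were open regions that also carried the histone mark H3K27ac, and it paired them by chromosome alignment. Here every peak in the window was counted and genes were paired by name, so the measures differ. S copies had 34 peaks and L copies 24, a difference of L minus S of -10. It was -3 for klf2, 0 for klf4, -5 for klf5 and -2 for klf17. Over the 7759 homeolog pairs of the genome L minus S was on average 0.649 ± 4.09 peaks (SD over gene pairs), with more at L in 48.8% of pairs and more at S in 35.4%. A gap at least as wide as that of klf5, in either direction, was found in 19% of pairs, as wide as that of klf2 in 40% and as wide as that of klf17 in 57.9%. The klf pairs were thus within the usual spread.

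Where fewer peaks were counted, the total lead of the S copies was smaller but kept its direction, and the order within some pairs changed. Restricted to a −log10 q of 10 or more, L minus S was -1 in all, with 1 each for klf2, 1 and 0 for klf4, 1 and 2 for klf5, and 4 and 5 for klf17. The 5 of klf17.S include a peak inside the neighbour LOC108715571. When only peaks under the list's median fold enrichment were left out, 32 remained and L minus S was -6 in all, with 0 for klf4, -4 for klf5 and -3 for klf17, while for klf2 the order turned to 1 more at L. For klf17 it turned to 2 more at L when peaks nearer to another protein-coding gene were left out. With a window of 25 kb, L minus S of klf17 was 0.

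A difference in the strength of the end peaks was not detectable at this depth in any pair. The ratio of L to S fragments at the summit was 0.96 for klf2 (95% Clopper-Pearson interval 0.525 to 1.75), 1.27 for klf4 (0.610 to 2.68), 1.08 for klf5 (0.609 to 1.91) and 0.87 for klf17 (0.453 to 1.66). Each interval contained 1, and they cover counting error only. The leading end was the same by coordinate, low or high, in L and S for 4 of 4 pairs. Among the homeolog pairs with an end peak at both copies this was so for 71.2%. The paper reports large inversions between the L and S chromosomes of some pairs, which do not include those of the klf genes. Matching ends lie at opposite coordinates there, and whether this lowers the share over all pairs was not tested.

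Placed by distance from the leading end, some outward peaks of the copies lay at like positions. Between 1 and 50 kb out, 6 of 13 L peaks (46.2%) had an S peak within 1 kb of the same distance, and 6 of 15 S peaks (40%) had an L peak. Over all homeolog pairs with an end peak at both copies, these shares were 18.6% of L peaks and 20.9% of S peaks. That background also holds pairs whose leading ends differ by coordinate and pairs with outward peaks at only 1 copy. No klf pair is of either kind. Of the 6 matches, 4 were at klf17, 1 at klf2 and 1 at klf4. Chance matches become more likely where peaks are dense, as at klf17, and the limit of 1 kb was set after the distances had been seen. The sequences of the copies were not aligned here, and the paper's alignment of L and S chromosomes was not used. Like distance therefore does not show that these are the same element.

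Other genes of the family gave a mixed picture. Of 14 further klf names, 18 copies were annotated, 17 with a peak within 50 kb and 16 with an end peak, against 8 of 8 here. An end peak with a −log10 q of 10 or more was found at 14 of these 18 copies (77.8%, against 87.5% here). The strongest peak within 50 kb was an end peak at 10 of them. Their strongest end peaks had a median of 11.2-fold, from 5.75-fold at klf8.L to 18.5-fold at klf11.S. In fragments at the summit their median was 22, close to the 23.5 of klf2, klf4, klf5 and klf17. klf11, which in mammals is a TGF-beta inducible repressor, had 13 peaks at L and 12 at S. klf10, a related gene, had 6 and 11. klf3, a repressor gene, had 0 peaks within 50 kb of klf3.L and 1 of klf3.S. Their median of 4.5 peaks came from genes with a median length of 32454 bp, against 3894 bp for klf2, klf4, klf5 and klf17, so their windows were wider.

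The related SP genes, which share the zinc fingers, had end peaks at 15 of 18 copies with a median of 9.29-fold and a median of 5.5 peaks. An end peak with a −log10 q of 10 or more was found at 10 of the 18 SP copies (55.6%), and the strongest peak was an end peak at 10. sp1, a widely used activator gene, had end peaks of 17.8-fold at L and 19.4-fold at S, above every copy of klf2, klf4, klf5 and klf17. Pluripotency regulators of other families, such as pou5f3, sox2 and the ventx genes, had a median of 11 peaks within 50 kb, from 1 at tfcp2l1.S to 24 at both pou5f3.1 copies. Their end peaks were found at 26 of 36 copies, with a median of 7.50-fold, and the strongest peak was an end peak at 9 of 36. Neighbours of the pou5f3 and ventx clusters share windows, so their counts are not separate. The median of this list counts such shared peaks more than once, so whether klf2, klf4, klf5 and klf17 have fewer peaks a gene cannot be read from it. Their median fold enrichment at the gene end was higher than that of this list, which was not tested.

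**Figure D4:**
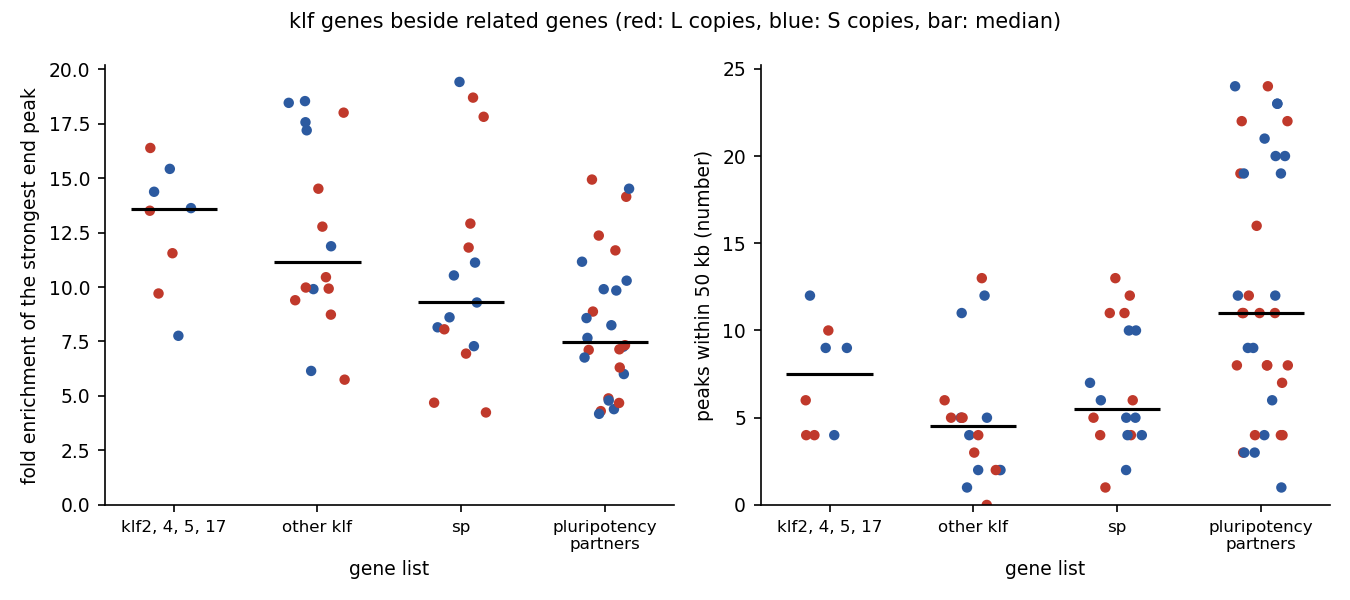
Fold enrichment of the strongest end peak (left, genes with an end peak) and number of peaks within 50 kb (right) for copies of klf2, klf4, klf5 and klf17 and 3 related gene lists. Each point is 1 gene copy, L red and S blue, and the bars are medians. They are 13.6-fold and 7.5 peaks for the 4 klf pairs, 11.2-fold and 4.5 for other klf genes and 9.29-fold and 5.5 for SP genes. For the pluripotency partners they are 7.50-fold and 11 peaks, with peaks shared in the pou5f3 and ventx clusters counted more than once.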

How the data were processed

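Bowtie2 2.4.2 placed the read pairs on X. laevis v10.1, low mapping quality was filtered out, and short stage 9 fragments from all replicates were pooled. MACS2 2.2.7.1 then found peaks, with CUT&RUN libraries lacking antibody as its control, and those over small RNA and rRNA repeats were dropped (versions from the submitters' processing notes, which also name bedtools 2.30.0). The columns the authors deposited are a fold enrichment (ratio, pseudocount 1), −log10 p, −log10 q, a score derived from it and the summit offset. Reads that fit L and S equally well get low mapping quality and can be lost, which lowers coverage where the copies are alike.

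Fragments at each summit were solved from fold and p as a Poisson tail (relative tolerance 0.0001). Of 58223 summits 57807 had 1 solution, 410 had a second one below the background of the list, 0.626 fragments, which was discarded, and 6 had none. Each klf summit had 1. The steps, in Python 3.11.15, were tested on simulated data. Intervals are 95% and ignore PCR duplication. Distances used both gene ends in the RefSeq table of the same assembly, and homeologs were paired by name. Positions in exons, introns or UTRs, promoters and sequences were not analysed here, so the planned motif and protein comparisons were not made.

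Members, lists and tests were chosen with earlier results of these data known. By rule, all klf copies were named and, for each, the 3 peaks of highest fold, all end peaks and neighbours nearer to a peak than the klf gene were described; other klf peaks were added after their values were seen. Genes of the other lists were named after their values were seen. No test over samples was possible.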

Additional observations from a re-analysis of the deposited data

How the results depend on the processing

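Raising the threshold to a −log10 q of 10 left 15 of 58 peaks (25.9%, against 20.4% of the whole list) and a total L minus S of -1. With at least the median fold enrichment of the list, a limit that splits the list evenly, there were 32 peaks (55.2%) and a difference of -6, and klf2 turned to 1. With peaks nearest to the klf gene alone the difference was -5, and klf17 turned to 2. An alternative chosen after seeing the data, ranking by summit fragments, gave the end peak as the highest in 5 copies instead of 8. Windows of 25 kb and 100 kb, the peak edge in place of the summit, and a window around the leading end alone (chosen after seeing the data) gave 54 to 67 peaks in all and L minus S between -11 and -8. Within 25 kb the difference for klf17 was 0. End peaks were found at 8 copies within 500 bp, within 2 kb and by peak edge, and at 7 once a −log10 q of 10 was required. The strongest peak by fold was an end peak at 8 copies within 10 kb and by −log10 p.

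No paired analysis was possible because the list pools all stage 9 replicates, and for the same reason no replicate was left out. Depth limits all weak peaks, many of which rest on 6 to 9 fragments, and absence from the list is not closure.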
